A study of Homo sapiens with 4 samples.

Results

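RNA from MOLM-13 cells carrying a short hairpin against c-Myc was compared with RNA from the same line carrying a control hairpin. All 13392 genes with at least 1 CPM (counts scaled to library size) in either library were followed, of 24940 genes listed in the count table. MOLM-13 is a human acute myeloid leukaemia line with a KMT2A fusion. The 2 compared groups are shControl (genotype negative control) and sh-c-Myc (genotype c-Myc knockdown), with 1 RNA-seq library each. A pair of further libraries, sh-Bcl2 (Bcl-2 knockdown) and sh-c-Myc_sh-Bcl2 (c-Myc and Bcl-2 knockdown, called the double knockdown here), was used only to look at the c-Myc hairpin on a second background. Every group was infected with lentivirus, selected in puromycin or G418 and induced with doxycycline, controls included. The labels name neither the number of hairpin sequences per gene nor whether cells were clones, and the doxycycline time before RNA extraction is not stated. With 1 library per group no difference has a replicate check. Intervals in brackets are exact 95% intervals that cover counting error only, and a gene is called higher or lower when the libraries differ at least 2-fold and its interval lies wholly on that side of no change.

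MYC encodes a basic helix-loop-helix leucine zipper transcription factor that binds DNA as a dimer with MAX, most often at the E-box letters CACGTG. It is known for raising genes of ribosome production, nucleotide synthesis and cell cycle entry. In myeloid leukaemia with a KMT2A fusion, MYC is known to sustain self-renewal, and its loss is known to accompany maturation towards monocytes and granulocytes. Ratios below are log2 ratios of library-scaled counts, sh-c-Myc over shControl, unless another pair is named.

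The table held 14825763 counts for shControl and 14421558 for sh-c-Myc, and 19450 and 21426 genes had a count. MYC itself (chromosome 8, 127735434 to 127741434 on GRCh38) stood at 433.8 CPM in shControl and 278.2 CPM in sh-c-Myc, with 364.3 CPM in sh-Bcl2 and 301.6 CPM in the double knockdown. Its ratio was -0.64 [-0.70 to -0.58], lower in RNA but short of the 2-fold rule, and protein was not analysed here. All 10 blast markers fixed for the line were measured, with FLT3 at 426.4 CPM, PTPRC (CD45) at 300.9 CPM and HOXA9 at 48.1 CPM in shControl. The defining markers of erythroid cells, fibroblasts and endothelium summed to under 1 CPM in both libraries. T and NK cell markers summed to 73.2 CPM in shControl and 63.6 CPM in sh-c-Myc, of which NKG7 made up 58.4 CPM in the latter. B cell markers summed to 3.41 and 5.26 CPM, with 2 of 3 measured called higher and 1 lower, megakaryocyte markers to 5.61 and 9.68 CPM, and epithelial markers to 0.426 and 1.15 CPM, with KRT8 called higher. The part of these in the results was not tested. Markers of monocytes and macrophages were higher in sh-c-Myc for 7 of the 10 measured, yet CD14 stood at 0.781 and 1.22 CPM and VCAN at 0 in both libraries. In such bulk samples a change in the share of cells of a type and a change in RNA per cell cannot be told apart.

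In sh-c-Myc, 1690 genes were higher, 12.6% of those measured, and 1337 were lower, 9.98%. The median ratio of all measured genes was -0.02. Myeloid surface, granule and calcium-binding protein genes led the higher side, and a nucleoside transporter, metallothionein and biosynthetic genes led the lower side. Among 2280 genes with a mean of at least 100 CPM, 3.60% were higher and 9.74% lower, and among 3727 genes with a mean of 1 to 10 CPM, 25.3% were higher and 8.29% lower. The 591 genes with a mean under 1 CPM (54.1% higher, 11.2% lower) passed the filter only through the library where they are high, so a difference is built into that class and nothing is read from it. The types hold such genes too: 36.1% of 1353 long noncoding genes and 25.6% of 575 pseudogenes were higher, against 8.90% of 11340 protein-coding genes. Long noncoding genes took 0.566% of counts in shControl and 0.998% in sh-c-Myc. Scaling by total counts moved the median of all genes by 0.19 and the higher share of calls from 55.8% to 70.9%, so every ratio holds relative to that shift. With filters that drop rare genes the higher share of calls fell below the lower one: it was 34.7% with at least 10 CPM in either library and 45.6% among protein-coding genes.

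**Figure D1:**
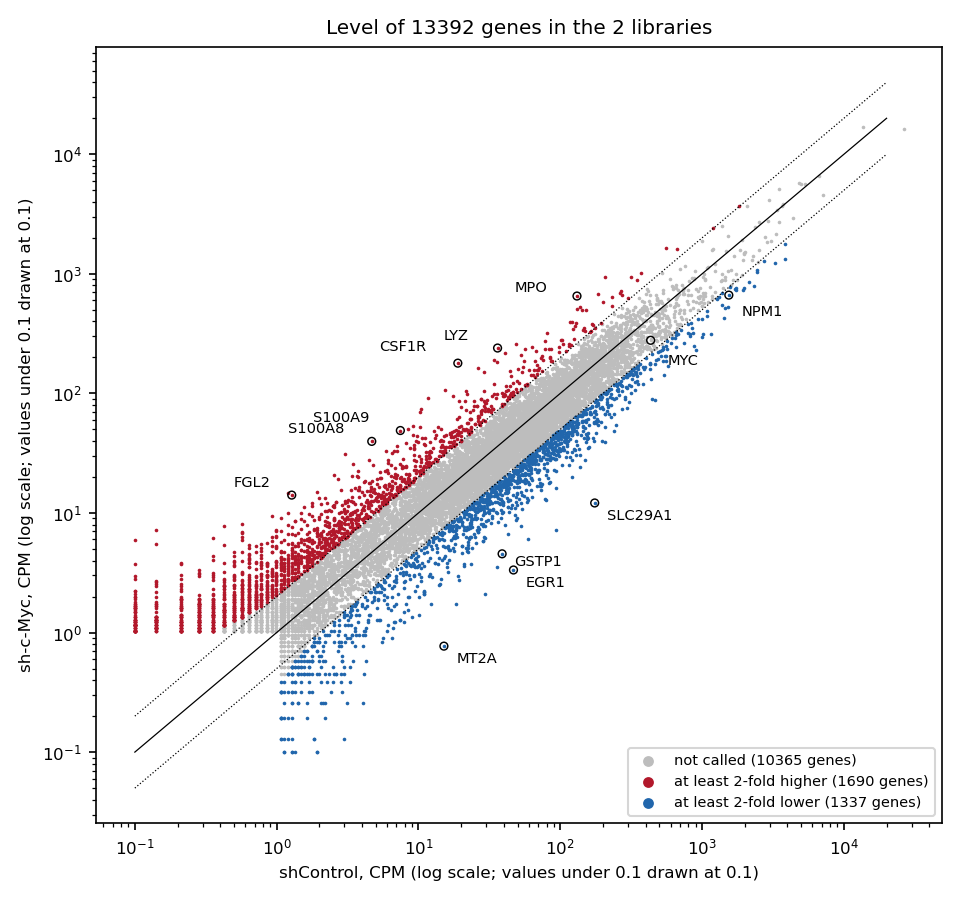
Level of each measured gene in shControl (x axis, CPM, log scale) against sh-c-Myc (y axis, CPM, log scale). Each point is a gene, the solid line marks equal levels and the dotted lines 2-fold differences. CSF1R lies far above the line and SLC29A1 far below it, while MYC lies inside the dotted band.

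**Figure D2:**
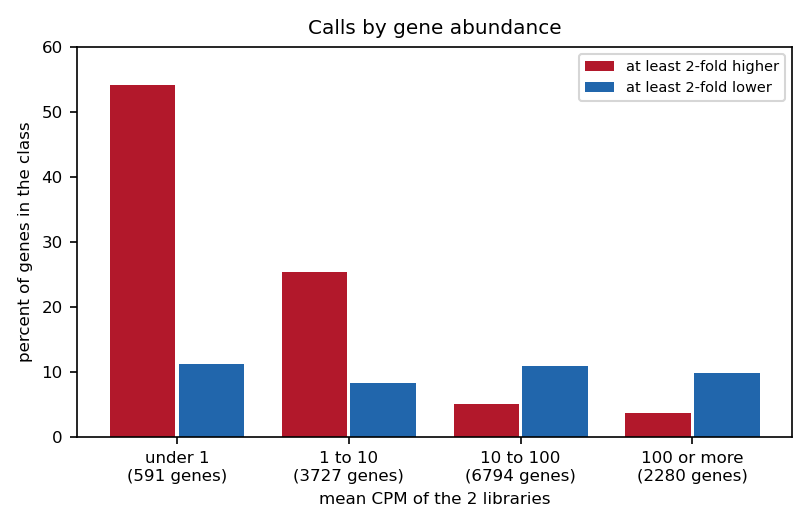
Percent of genes called higher (red) or lower (blue) in 4 classes of mean CPM, with the number of genes in each class below the bars. Higher calls make up 25.3% of the class from 1 to 10 CPM and 3.60% of the most abundant one. The rarest class (54.1% higher) is not comparable, since its genes passed the filter only through their high library.

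The 15 higher genes ranked first by conservative fold (its interval's end closer to no change) were CSF1R, CD209, AC096667.1, FGL2, FCER2, S100A8, FGD2, LYZ, PTAFR, AC008894.2, GPA33, RAB37, HK3, S100A9 and CDH23. CSF1R (chromosome 5, 150053291 to 150113372), the receptor for macrophage colony-stimulating factor, stood at 18.95 CPM in shControl and 35.7 CPM in sh-Bcl2 but at 179 CPM in sh-c-Myc and 152 CPM with both hairpins. FGL2, a secreted fibrinogen-like protein of macrophages, stood at 1.28, 3.37, 14.1 and 17.1 CPM in the same order. GPA33, a cell surface immunoglobulin-family protein, stood at 2.56, 2.91, 20.6 and 16.95 CPM. In all 3 genes both libraries with the c-Myc hairpin lay above both without it. PTAFR, the platelet-activating factor receptor, was 6.90-fold higher [5.997 to 8.0], FGD2, an exchange factor for the small GTPase CDC42, 7.17-fold higher [6.05 to 8.60] and RAB37, a secretory small GTPase, 6.22-fold higher [5.58 to 6.97]. AC096667.1 and AC008894.2 are antisense genes, so without a known strand setting their reads cannot be told from those of their partners. For LYZ, 34.0% of exonic bases overlap a further gene, which leaves its count equally uncertain.

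On the lower side the corresponding genes were SLC29A1, MT2A, CDC42EP1, EGR1, DDN, NKD2, NCS1, HPDL, GSTP1, TNFRSF19, SLC38A5, UNG, POLR3G, MARCKSL1 and SLC16A1. SLC29A1 (chromosome 6, 44219505 to 44234151), the equilibrative transporter that carries nucleosides and nucleoside drugs such as cytarabine, stood at 175 CPM in shControl and 151 CPM in sh-Bcl2 but at 12.1 CPM in sh-c-Myc and 33.1 CPM with both hairpins. CDC42EP1, an effector of CDC42 in the actin skeleton, stood at 92.9, 51.8, 7.18 and 5.44 CPM. MT2A, a metal-binding metallothionein, stood at 15.1, 6.41, 0.770 and 4.16 CPM. SLC29A1 and CDC42EP1 were low in both libraries with the c-Myc hairpin, whereas MT2A was lowest in sh-c-Myc and nearer to sh-Bcl2 in the double knockdown. Among the others were NKD2, an inhibitor of WNT signalling (9.65-fold lower [7.83 to 12.1]), GSTP1, a glutathione transferase (8.49-fold lower [6.66 to 11.1]), SLC38A5, a glutamine and serine transporter (6.23-fold lower [5.36 to 7.29]) and SLC16A1, the lactate carrier MCT1 (5.67-fold lower [5.08 to 6.35]). UNG, which cuts uracil out of DNA, stood at 121 CPM in shControl and 20.1 CPM in sh-c-Myc.

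**Figure D3:**
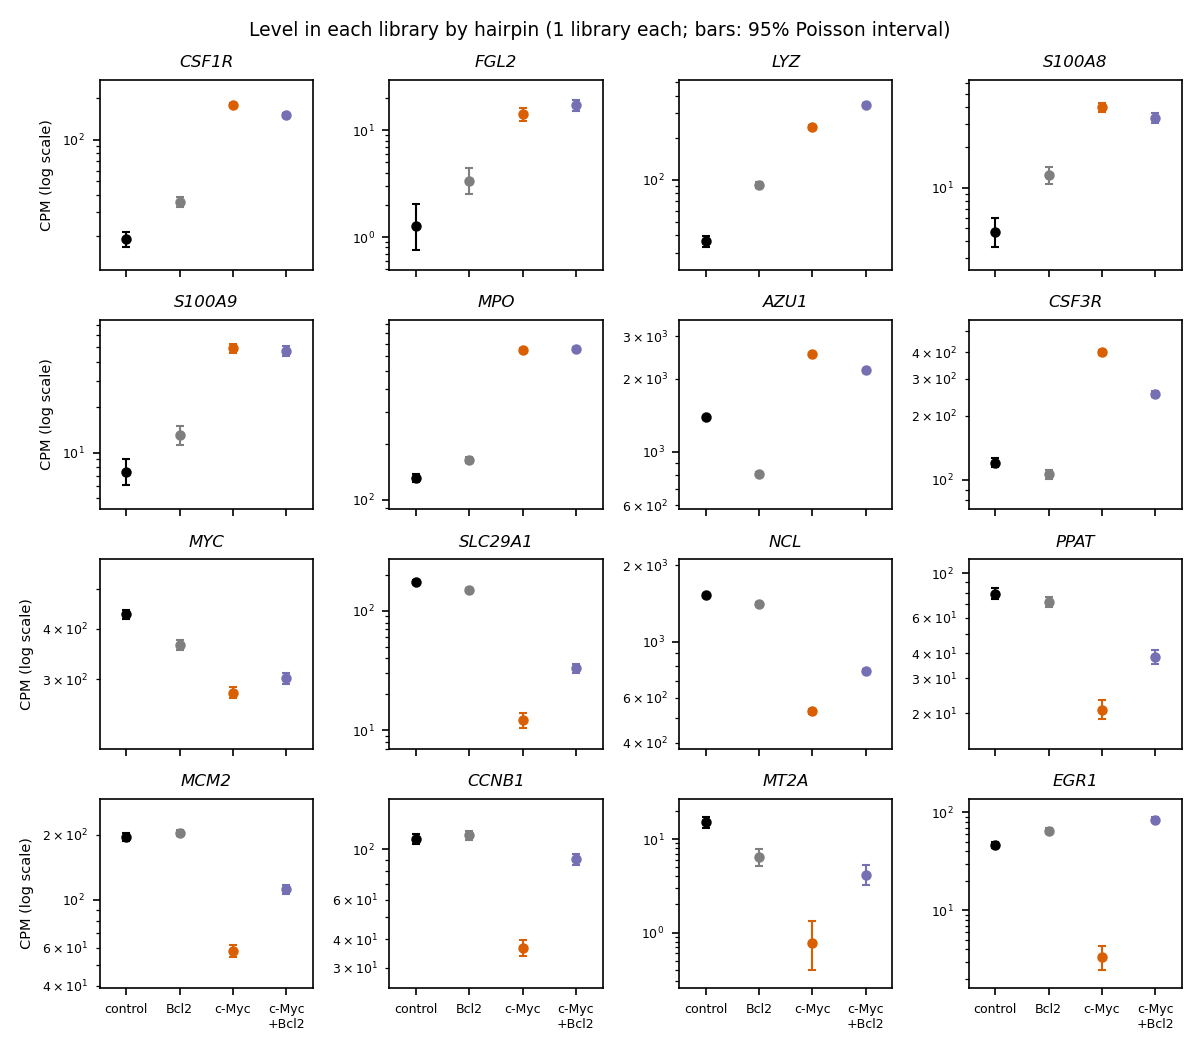
Level of 16 genes in the 4 libraries (y axis, CPM, log scale, own range per gene), with 1 library per hairpin and bars for the 95% Poisson interval of the count. In the top rows both libraries with the c-Myc hairpin lie above both others, SLC29A1, NCL, PPAT and MCM2 show the reverse, and EGR1 is low in sh-c-Myc (3.34 CPM) but not in the double knockdown (84.5 CPM).

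Most genes that process rRNA were lower. Of 44 measured genes of box C/D and H/ACA small nucleolar ribonucleoproteins and rRNA processing, 38 were lower and 0 higher, with a median of -1.46 against -0.02 for all genes, and all 44 ratios were below 0. NCL (nucleolin) went from 1520 CPM in shControl to 531 in sh-c-Myc, and NPM1 (nucleophosmin) from 1544 to 664 CPM. FBL, the methyltransferase of box C/D particles, stood at 284 and 90.4 CPM, and DKC1, the pseudouridine synthase of box H/ACA particles, at 314 and 101 CPM. The ratios of these 2 enzymes, which modify rRNA, were -1.65 and -1.63. The remaining H/ACA core genes were GAR1 at -1.78, NHP2 at -1.82 and NOP10 at -0.93, the last short of the rule. MRTO4, an assembly factor of the large subunit, was 4.53-fold lower [4.06 to 5.08] and EBNA1BP2, another, 4.08-fold lower [3.56 to 4.70].

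The polymerases that transcribe rRNA and tRNA moved less evenly. Of 15 genes of RNA polymerase I transcription 6 were lower (median -0.79), among them the catalytic subunits POLR1A (182 and 80.1 CPM) and POLR1B (123 and 53.7 CPM) and UBTF, the factor that keeps rDNA open (294 and 138 CPM). RRN3, which recruits the polymerase, had a ratio of -0.68, and TAF1B, of the promoter selectivity complex, one of 0.02. Among 22 genes of RNA polymerase III 5 were lower (median -0.53). POLR3G, the subunit of the pluripotency-linked form of the enzyme, stood at 42.7 and 6.61 CPM, a ratio of -2.69 [-3.01 to -2.39]. Its paralogue POLR3GL stood at 14.7 and 14.8 CPM, a ratio of 0.01 [-0.26 to 0.29], so these 2 alternative subunits did not move together. In the host RNAs of small nucleolar RNAs and related noncoding RNAs, 11 of 22 were lower and 1 higher (median -1.03). GAS5 went from 674 to 314 CPM, SNHG1 from 159 to 54.3 CPM and MIR17HG, the primary transcript of the miR-17-92 cluster, from 13.5 to 4.68 CPM, while NEAT1, the paraspeckle RNA, was the higher one (29.2 and 86.8 CPM).

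In the translation lists most genes were called neither way. Of 46 initiation and elongation factor genes 9 were lower and 0 higher (median -0.64). EIF4EBP1, the inhibitor of the cap-binding protein eIF4E, went from 208 to 39.4 CPM, whereas its paralogue EIF4EBP2 stood at 245 and 317 CPM. EEF1A1, the elongation factor that delivers aminoacyl-tRNA, had a ratio of -0.69. Among 22 cytosolic aminoacyl-tRNA synthetase genes 6 were lower (median -0.75). Both chains of phenylalanyl-tRNA synthetase were lower, FARSA (294 and 76.2 CPM) and FARSB (80.6 and 28.2 CPM), while QARS, which charges glutamine, had a ratio of -0.04 [-0.10 to 0.02]. Of 27 cytosolic chaperone genes 15 were lower (median -1.06). HSP90AB1 stood at 3836 and 1338 CPM and HSPA8 at 2334 and 795 CPM, and of the chaperonin subunits CCT7 had a ratio of -1.39 and CCT8 one of -0.42. PTGES3, the p23 cochaperone, stood at 674 and 667 CPM.

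In the purine pathway, which builds adenine and guanine nucleotides, 8 of 12 genes were lower and 0 higher (median -1.43). PRPS1, which makes the starting phosphoribosyl pyrophosphate, had a ratio of -1.84, PPAT, the committed first enzyme, one of -1.92 [-2.10 to -1.74] (79.0 and 20.9 CPM), and PFAS, further along, one of -2.17. PAICS, which carries out 2 steps, went from 443 to 90.6 CPM, and the closing enzyme ATIC from 144 to 48.6 CPM. After inosine monophosphate the isoenzymes of a single step differed: IMPDH2 stood at 349.5 and 139.7 CPM and IMPDH1 at 156 and 133 CPM. ADSL, at 4.68 and 3.66 CPM, had an interval that included no change [-0.90 to 0.18]. Among 17 pyrimidine and deoxynucleotide genes 10 were lower (median -1.21). CAD, which holds the first 3 pyrimidine activities, had a ratio of -1.44, and UMPS, which makes uridine monophosphate, one of -1.38, while DHODH, the mitochondrial step between them, had one of -0.57. The ribonucleotide reductase chains RRM2 (102 and 25.1 CPM) and RRM1 (214 and 81.3 CPM) were lower, and the p53-inducible alternative chain RRM2B stood at 74.8 and 92.1 CPM.

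Polyamine and one-carbon genes were split by step. ODC1, the rate-limiting enzyme of polyamine synthesis, had a ratio of -2.43, spermidine synthase SRM one of -1.74 and spermine synthase SMS one of -1.22, and these 3 with DOHH made up the 4 lower genes of 12 measured. DOHH completes the hypusine modification of EIF5A, a translation factor that uses spermidine, and both were lower (-1.51 and -1.16). The antizyme gene OAZ1 had a ratio of -0.23. Of 15 serine and one-carbon genes 6 were lower (median -0.86), including PHGDH (295 and 110.4 CPM) and PSAT1 (351 and 119.9 CPM), which open serine synthesis, and the cytosolic folate enzyme MTHFD1 (153 and 44.4 CPM). The mitochondrial folate enzymes SHMT2 and MTHFD2 had ratios of -0.96 and -0.58.

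Transport and glycolytic genes went in both directions. Among 27 genes of glycolysis and lactate 5 were lower and 2 higher (median -0.51). LDHA, which makes lactate, went from 1004 to 297 CPM and ENO1 (enolase) from 2448 to 1040.0 CPM, while GAPDH had a ratio of -0.21. HK2, a hexokinase of proliferating cells, stood at 124 CPM in shControl, then 112 CPM in sh-Bcl2, against 48.6 CPM in sh-c-Myc and 64.2 CPM with both hairpins. HK3, the myeloid hexokinase, stood at 3.48, 3.83, 25.6 and 17.3 CPM in the same order. The 2 hexokinases therefore lay in opposite order across the libraries. In nucleoside and nucleobase handling, 5 of 19 genes were lower and 2 higher, RRM1 and RRM2 among the lower ones again. Besides SLC29A1, the purine salvage enzyme HPRT1 had a ratio of -1.38, while the concentrative transporter SLC28A3 had one of 1.74 and SAMHD1, which degrades deoxynucleotides, one of 1.23 (84.7 and 199 CPM). DCK, the kinase that activates cytarabine, had a ratio of -0.54 and SLC29A2 one of -0.77. Among 18 amino acid transporter genes 5 were lower and 1, SLC43A2, was higher (6.81 and 21.3 CPM).

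Most genes of the replication and mitosis lists were lower. Of 28 genes of replication licensing and origin firing 19 were lower (median -1.26), as were 17 of 27 replication fork genes (median -1.12) and 26 of 35 mitotic genes (median -1.27), and 0 in these lists were higher. MCM2 to MCM7, the replicative helicase, were all lower: MCM3 went from 534 to 187 CPM, MCM6 from 334 to 107 CPM and MCM2 from 195 to 58.0 CPM. Of the origin recognition genes, ORC2 and ORC4 had ratios of -0.15 and -0.08. CDC20, which activates the anaphase-promoting complex, stood at 138 and 30.7 CPM, CCNB1 (cyclin B1) at 112 and 36.6 CPM and CDK1 at 231 and 92.1 CPM. MKI67, the proliferation marker Ki-67, stood at 769 and 418 CPM, short of the rule.

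Among 23 G1 genes 10 were lower and 0 higher (median -0.85). The D-type cyclins differed: CCND1 (10.1 and 1.99 CPM) and CCND2 (93.5 and 46.5 CPM) were lower, whereas CCND3 stood at 414 and 483 CPM. Their kinases differed in the same manner, with a ratio of -1.25 for CDK4 and 0.44 for CDK6, though CDK4 shares 43.2% of its exonic bases with other genes. The inhibitor genes CDKN1A (p21, -0.23) and CDKN1B (p27, 0.13) had ratios near 0, so the lower cycle genes were not accompanied by a called rise of either. Of 25 p53 targets 3 were lower and 2 higher (median -0.28), shares near the 9.98% and 12.6% of all measured genes.

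**Figure D4:**
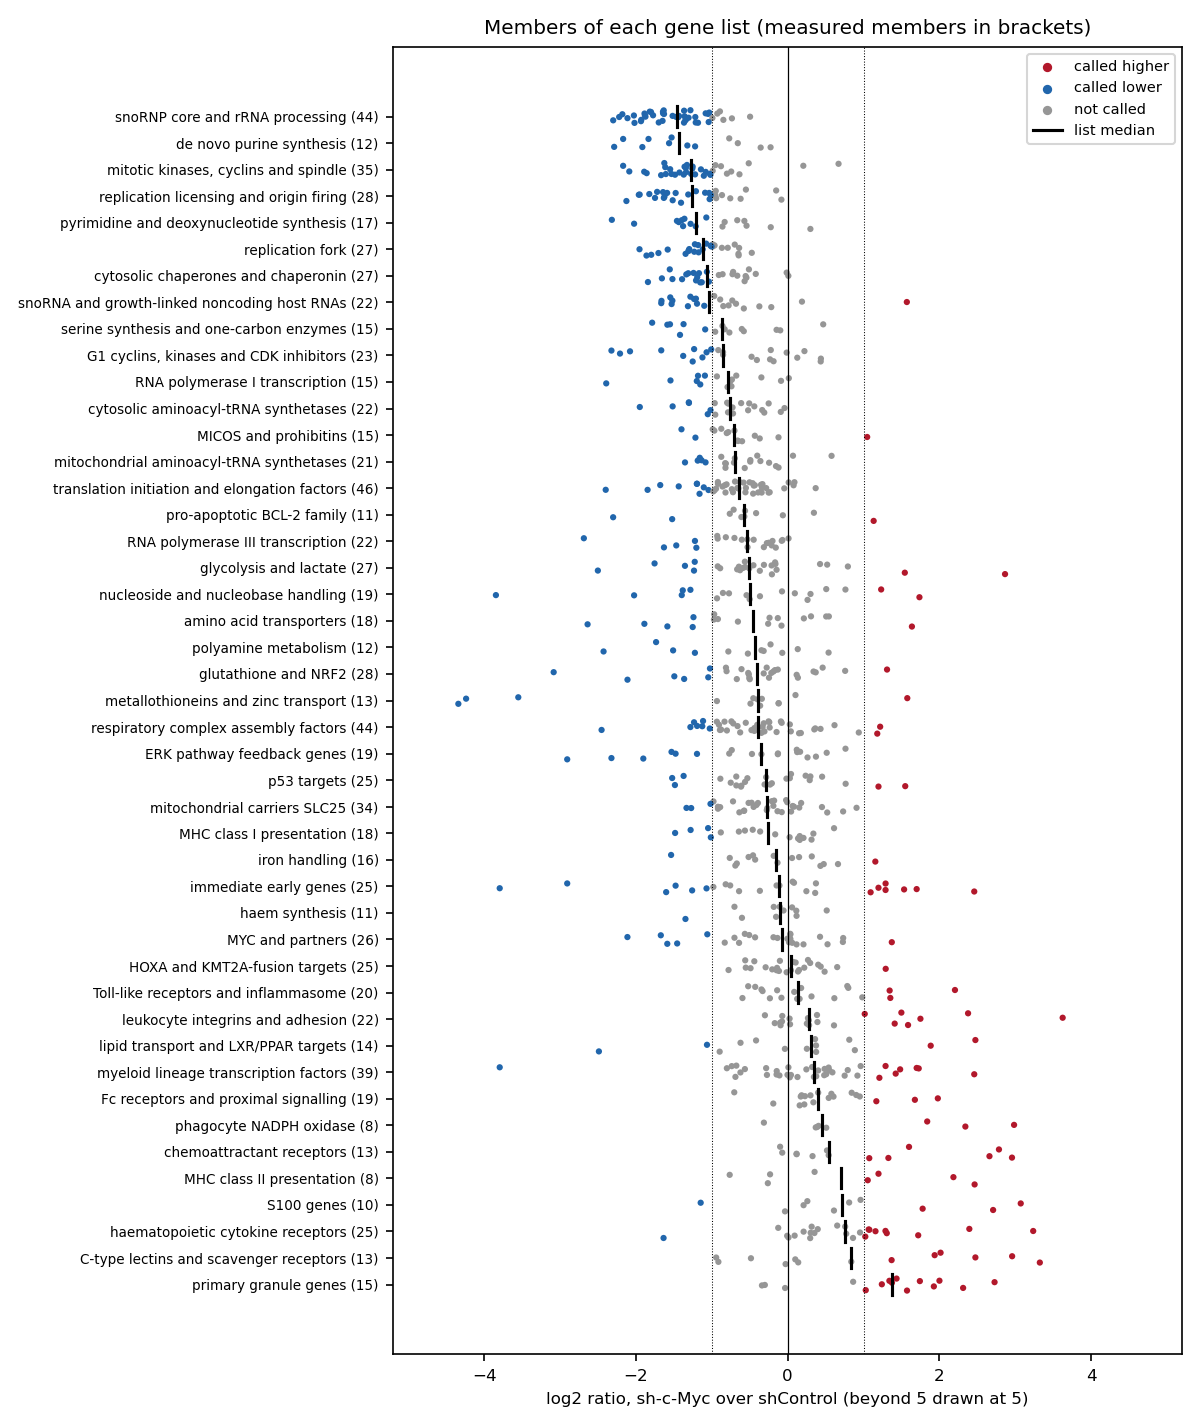
log2 ratio of sh-c-Myc over shControl (x axis) for the measured members of each gene list with at least 8 of them (rows, ordered by median). Each point is a gene, coloured by its call, and the black bar is the list median. Ribosome, purine and replication lists lie to the left (medians from -1.46 to -1.12), and primary granule genes lie farthest to the right (median 1.38).

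The promoters of these genes were read for the letters that MYC-MAX dimers bind, on both strands, in RefSeq windows (GRCh38.p14) of 250 bases before to 50 after each start. CACGTG was present in 147 of 997 matched protein-coding genes called lower (14.7%) and in 757 of 7562 called neither way (10.0%), against 7.41% of all 27305 promoters of this length. Shares also differed between lists, which hold few promoters and were picked after motif shares had been seen. The letters were in 36.1% of 36 rRNA processing promoters, 0 of 25 chaperone promoters and 33.3% of 21 promoters of HOXA and KMT2A-fusion targets. The median ratios of these lists were -1.46, -1.06 and 0.04. Whether the letters bear on the calls was not tested. Letters of E2F sites, TTTCCCGC or TTTGGCGC, were in 43.5% of 23 licensing promoters and 3.87% of 9301 measured ones, and GAGGAAGT, which holds the core of PU.1 sites, was in 37.5% of 16 promoters of Fc receptor and signalling genes against 2.59%. No share is given for genes called higher, since only 73.7% of them matched a promoter. A match describes letters in a window and is not evidence of binding.

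The stretches below are shown because they carry these letters upstream of genes described here. They run 5′ to 3′ on the gene's own strand, with the matched letters in capitals. The first 6 hold CACGTG and belong to a transporter, an rRNA processing factor, both ends of the purine pathway, spermidine synthase and a helicase subunit. The following 3 hold E2F letters. In the last pair the same PU.1-type letters precede TYROBP, which was higher, and VAV1, which had a ratio of 0.16.
SLC29A1, chr6:44219365-44219405, plus strand: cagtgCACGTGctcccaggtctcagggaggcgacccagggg
EBNA1BP2, chr1:43172772-43172820, minus strand: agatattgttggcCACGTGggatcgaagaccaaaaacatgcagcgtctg
PPAT, chr4:56435762-56435827, minus strand: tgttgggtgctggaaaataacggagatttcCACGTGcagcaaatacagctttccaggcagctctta
ATIC, chr2:215311983-215312048, plus strand: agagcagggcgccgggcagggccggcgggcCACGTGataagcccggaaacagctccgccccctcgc
SRM, chr1:11060182-11060247, minus strand: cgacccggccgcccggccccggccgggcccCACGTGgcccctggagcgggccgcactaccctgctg
MCM2, chr3:127598370-127598410, plus strand: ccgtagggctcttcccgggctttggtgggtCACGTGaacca
GINS2, chr16:85688955-85689015, minus strand: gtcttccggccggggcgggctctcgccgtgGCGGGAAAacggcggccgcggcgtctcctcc
MCM6, chr2:135876558-135876625, minus strand: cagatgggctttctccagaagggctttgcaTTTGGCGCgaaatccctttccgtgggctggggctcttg
MCM3, chr6:52284879-52284946, minus strand: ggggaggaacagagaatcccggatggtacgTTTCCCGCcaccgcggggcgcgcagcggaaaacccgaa
TYROBP, chr19:35908296-35908337, minus strand: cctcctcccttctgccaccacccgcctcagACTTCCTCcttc
VAV1, chr19:6772667-6772707, plus strand: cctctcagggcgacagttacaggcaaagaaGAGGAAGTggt

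Among the myeloid lists, primary granule genes had the highest median. Of 15 granule genes 11 were higher and 0 lower (median 1.38). MPO (myeloperoxidase) stood at 131 CPM in shControl and 164 CPM in sh-Bcl2, against 652 CPM in sh-c-Myc and 660.2 CPM with both hairpins, and the defensive ribonuclease RNASE2 at 315, 529, 937 and 945 CPM. The serine protease genes ELANE (350.2 and 887 CPM in shControl and sh-c-Myc) and PRTN3 (72.6 and 197 CPM) were higher. Their relative AZU1 stood at 1387 and 2523 CPM, short of the rule at 0.86, and CTSG, another granule protease, at 344 and 272 CPM with a ratio of -0.34 [-0.40 to -0.28]. The granule proteases thus did not share 1 direction. Of 10 S100 genes, which encode small calcium-binding proteins, 3 were higher and 1 lower: S100A8 (4.68 and 39.7 CPM), its partner S100A9 (7.45 and 48.9 CPM) and S100A3 were higher, and S100P was lower (59.8 and 27.0 CPM).

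Receptors for myeloid growth factors differed from gene to gene. Among 25 cytokine receptor genes 9 were higher and 1 lower (median 0.76). CSF3R, the granulocyte colony-stimulating factor receptor, went from 121 to 398 CPM, the GM-CSF receptor alpha chain CSF2RA from 26.3 to 58.8 CPM and KIT, the stem cell factor receptor, from 1.77 to 9.49 CPM. FLT3, the receptor whose mutant form is common in this leukaemia, had a ratio of 0.65, and the interleukin 6 receptor IL6R one of 0.01 [-0.04 to 0.06]. The 1 lower member, IL2RG, was at 2.06 and 0.641 CPM and shares 50.8% of its exonic bases with other genes. Of 13 measured chemoattractant receptor genes 6 were higher, of which PTAFR, CCR1 and the fractalkine receptor CX3CR1 (75.7 and 190.0 CPM) were above 10 CPM in both libraries.

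Phagocyte lists differed in how many members were higher. Of the genes listed, 13 of 28 lectin and scavenger receptors and 13 of 21 chemoattractant receptors reached 1 CPM, and a gene that did so only where it was high had to differ, so nothing is read from these 2 counts. Of 13 measured C-type lectin and scavenger receptor genes 6 were higher, including CD209 (DC-SIGN), the low-affinity IgE receptor FCER2 (CD23) and the lipid scavenger CD36 (34.1 and 189.7 CPM), while SCARB1 had a ratio of -0.91. In the Fc receptor list 3 of 19 genes were higher, a share near the 12.6% of all measured genes: FCGRT, the neonatal Fc receptor (52.7 and 208 CPM), the adaptor TYROBP (27.8 and 89.1 CPM) and the kinase FGR. BTK, at 200.02 and 123 CPM, had a ratio of -0.70. The phagocyte oxidase was uneven. The cytosolic subunit NCF1 (29.1 and 104 CPM) was higher, but CYBA, the membrane partner of the catalytic subunit CYBB, stood at 174 and 139.8 CPM. CYBB itself (0.568 and 4.75 CPM) was called higher but reached 1 CPM only in sh-c-Myc, so nothing is read from its call. Of 22 integrin and adhesion genes 7 were higher, among them ITGAM (CD11b, 78.1 and 235 CPM) and ITGAX (CD11c, 28.96 and 151 CPM), and their shared beta chain ITGB2 had a ratio of 0.61. Among Toll-like receptor and inflammasome genes 3 of 20 were higher, likewise near that share, including TLR4 (2.63 and 12.2 CPM), with its coreceptor CD14 near 1 CPM.

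Antigen presentation genes did not share a direction. In MHC class II presentation 8 of 19 listed genes were measured, with the same limit, and 4 were higher (median 0.71), namely HLA-DMA, HLA-DQB1, CD86 and the transactivator gene CIITA, each under 10 CPM in both libraries. CD74, the invariant chain, stood at 98.0 and 81.7 CPM. The list's median in the double knockdown over sh-Bcl2 was -0.32, the opposite sign. Of 18 MHC class I genes 4 were lower, among them CALR (calreticulin) with 1444 and 516 CPM, whereas HLA-B and B2M had ratios of 0.34 and 0.16.

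Lineage transcription factor genes mostly stayed within 2-fold. Of 39 measured 7 were higher and 1, EGR1, lower (median 0.35), against 12.6% and 9.98% of all measured genes. The higher ones were KLF4 (12.1 and 39.3 CPM), CEBPD (28.96 and 77.8 CPM), NFE2 (53.6 and 149.9 CPM), IRF7, KLF2, EGR3 and CEBPE, the last a factor of late granulocyte maturation at 1.14 and 3.85 CPM. The factors that set myeloid identity had smaller ratios: SPI1 (PU.1) 0.54, RUNX1 0.55, IRF8 -0.14 and CEBPA 0.01, though 43.4% of the exonic bases of CEBPA overlap a further gene. MYB, the progenitor factor, had a ratio of 0.49. Among 25 HOXA genes and KMT2A-fusion targets 1 was higher (LMO2, 105 and 258 CPM) and 0 lower, with a median of 0.04. HOXA9 stood at 48.1 and 50.5 CPM and MEIS1 at 38.2 and 27.2 CPM.

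Of the MYC network, 5 of 26 measured genes were lower and 1 higher. The chromatin helicase RUVBL1 (91.1 and 28.5 CPM) and the MYC target factor TFAP4 (39.0 and 14.2 CPM) were lower, PIM1, a kinase that cooperates with MYC, was higher (28.2 and 73.1 CPM), and MAX had a ratio of -0.51. The antagonists of MYC, MXD1 and MXD4, each had a ratio of 0.73. The median of this list was -0.07 and changed sign with total-count scaling (0.12).

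Immediate early genes, which respond to growth signals within minutes, went both ways: of 25 measured 7 were higher and 6 lower. EGR1 stood at 46.8 CPM in shControl and 3.34 CPM in sh-c-Myc, 13.9-fold lower [10.6 to 18.98], and JUNB at 113 and 47.2 CPM. The AP-1 members JUN (13.98 and 29.9 CPM), JUND (272 and 666 CPM) and FOSL2 (201 and 584 CPM) were higher, and FOS stood at 68.6 and 53.2 CPM. Of 19 ERK feedback genes 6 were lower and 0 higher, with DUSP6, a phosphatase of ERK, at a ratio of 0.12. The list median of immediate early genes, -0.11, was 0.08 with total-count scaling.

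Metal and redox genes held some of the lowest ratios. The 3 measured metallothionein genes were all lower: MT2A was 18.9-fold lower [11.01 to 38.6], and MT1G and MT1E, with 1 and 2 counts left in sh-c-Myc, had ratios of -4.34 [-10.26 to -2.30] and -3.55 [-6.97 to -1.85]. All 3 reached 1 CPM only in shControl, where they are high, so nothing is read from their shared direction. In the double knockdown over sh-Bcl2, 0 of the 13 measured metallothionein and zinc transport genes were lower. Only 3.29% of all measured genes were lower there, so nothing is read from that count. MTF1, the zinc sensor that drives metallothionein genes, had a ratio of 0.10. Of 28 glutathione and NRF2 genes 6 were lower, among them the quinone reductase NQO1 (58.1 and 13.4 CPM), while HMOX1, another NRF2 target, had a ratio of -0.67. In the BCL-2 family the pro-survival genes BCL2 (-0.10, or 0.08 with total-count scaling) and MCL1 (0.07) had ratios near 0 and BCL2A1, at 1.77 and 5.90 CPM, was higher. Of 11 pro-apoptotic genes PMAIP1 (NOXA, 60.3 and 21.0 CPM) and HRK were lower and BMF was higher (33.5 and 73.6 CPM).

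The c-Myc hairpin was also present in the double knockdown, whose own reference is sh-Bcl2, so this second ratio shares no library with sh-c-Myc over shControl. Over the same 13392 genes, 598 were higher there (4.47%) and 440 lower (3.29%), 7.75% in either direction, and MYC RNA had a ratio of -0.27. Of the 1690 higher genes 425 (25.1%) were called higher again, 71.1% of the genes called there, and 5 were called lower. Of the 1337 lower genes 286 (21.4%) were called lower again, 65.0% of those called there, and 3 were called higher. The sign was kept by 83.1% of higher and 94.8% of lower genes. The median of the higher genes was 1.56 and then 0.69, and that of the lower genes -1.35 and then -0.69. These genes were picked by the size of their first ratio, which alone favours a smaller second one. Nothing is therefore read from the smaller medians. Across 9063 genes with a mean of at least 10 CPM, Pearson's r was 0.84 and Spearman's rho 0.82, as a description only: the points share the cell line, the hairpin and the gene models, and genes are not independent replicates.

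Of 15 granule genes 9 were higher on the second background and 1 was lower (medians 1.38 and 1.25), against 4.47% and 3.29% of all measured genes. PRTN3 had ratios of 1.44 and 1.996, ELANE of 1.34 and 1.90 and AZU1 of 0.86 and 1.42, so each of these protease genes had the larger ratio in the double knockdown. MPO had ratios of 2.31 and 2.01. Of 35 mitotic genes 1 was lower on the second background, a share near the 3.29% of all measured genes, so nothing is read from that count. The medians were -1.27 and -0.40, with CDK1 at -1.33 and -0.19 and CCNB1 at -1.61 and -0.35. In the rRNA processing list 17 of 44 were lower there (medians -1.46 and -0.93), and the purine list, with 2 of 12 (medians -1.43 and -0.81). The 5 genes per direction with the largest conservative fold on both backgrounds were GPA33, CSF1R, MPO, FGL2 and FGD2 among the higher and CDC42EP1, SLC29A1, DDN, SLC7A2 and NKD2 among the lower. DDN encodes dendrin and stood at 29.4, 18.7, 2.12 and 3.65 CPM in the order control, Bcl-2, c-Myc and both hairpins. SLC7A2, a cationic amino acid transporter, stood at 92.6, 77.8, 16.03 and 17.8 CPM. In all 15 leading higher genes the call was the same on both backgrounds, and in 12 of the 15 leading lower ones. The 3 exceptions were MT2A (-4.24 and -0.62), UNG (-2.58 and -0.94) and EGR1 (-3.80 and 0.37). The difference between the backgrounds was not tested, since each rests on 1 library per hairpin.

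**Figure D5:**
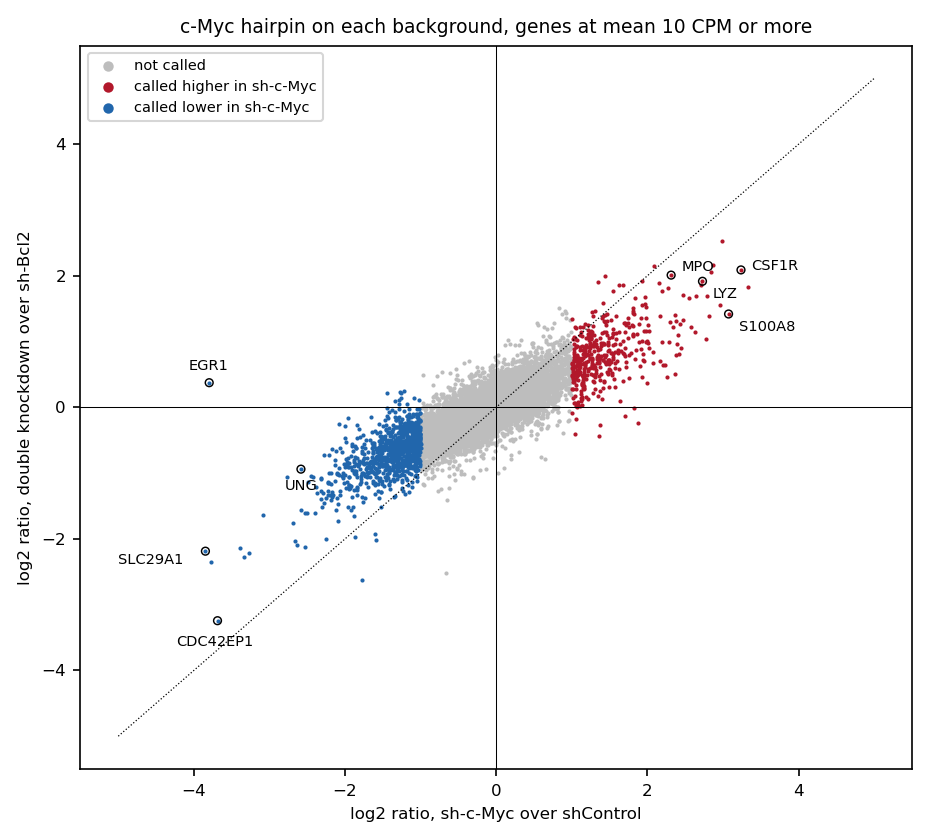
log2 ratio of sh-c-Myc over shControl (x axis) against that of the double knockdown over sh-Bcl2 (y axis) for 9063 genes with a mean of at least 10 CPM over the 4 libraries. Each point is a gene, coloured by its call on the x axis, and the dotted line marks equal ratios. Called genes mostly lie on the same side of 0 on both axes, and EGR1 (-3.80 and 0.37) is an exception. They lie nearer to 0 on the y axis, but they were picked by size on the x axis.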

How the data were processed

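Total RNA was extracted, and 1 RNA-seq library per hairpin was measured in MOLM-13 cells. The authors aligned reads with HISAT2 (version not given in the sources used here) to GRCh38 and counted them with HTSeq 0.13.5, per the submitters' processing notes. The deposited table holds raw counts per gene and FPKM, per the file headers. Neither the annotation release nor the strand setting was given, which leaves overlapping and antisense genes uncertain. The authors' deposited FPKM entered only an alternative. Positions and gene types came from GENCODE 29.

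Counts were scaled by TMM factors over the 4 libraries (edgeR 4.0.16, R 4.3.3), and ratios used a prior of 0.5 counts. Genes with at least 1 CPM in either compared library were kept. Intervals are exact conditional binomial 95% intervals. With 1 library per group no test was made. Python 3.11.15, numpy 2.4.6, pandas 2.3.3, scipy 1.17.1 and matplotlib 3.10.9 were used, and DESeq2 1.42.0 gave size factors as an alternative. The ratio and its interval were tested on simulated data.

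Genes were named by this rule: MYC, 15 per direction leading by conservative fold at 10 CPM or more in either library, 5 per direction leading among genes that repeat on both backgrounds, genes with opposite calls there, and from each of 46 gene lists every member of short lists or else up to 8 leading and 2 least changed members. Marker lists numbered 10. Other list and marker members (such as NCL, NPM1, FBL, DKC1, AZU1, CTSG, CCND3 and CDK1) were named for their roles, after their values were seen. Some genes are not reported here. Members and lists were chosen with earlier results of these data known. Promoter letters, the lists they are given for and the restriction to protein-coding genes were chosen after motif shares had been seen.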

Additional observations from a re-analysis of the deposited data

Results flagged for a closer look

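9 genes were called in one direction in sh-c-Myc over shControl and lay on the opposite side of no change in the double knockdown over sh-Bcl2, with both intervals excluding no change. The difference was not tested, since each ratio rests on 1 library per hairpin. EGR1 had ratios of -3.80 and 0.37, and JUNB, another immediate early gene, -1.26 and 0.14. STOX1 had ratios of -2.33 and 1.59, ZDHHC23 of -1.24 and 1.08 and AC116914.2 of -1.03 and 1.54. In the other direction C2orf88 had ratios of 1.73 and -1.45, AC002553.1 of 1.29 and -1.47 and AC025171.5 of 1.53 and -1.03. CALML4 had ratios of 2.66 and -3.51 and has 93.7% of its exonic bases in common with other genes. Apart from EGR1 and JUNB, these genes stood at no more than 4.22 CPM in any library.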

How the results depend on the processing

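Settings were compared for 386 genes: MYC, the 15 leading genes per direction and the leading members of each list. Of these, 0 called ones changed sign. Under total-count, upper-quartile or FPKM values 8 uncalled ones did, BCL2 among them (-0.10 and 0.08). The least changed members of longer lists and some genes named for their roles were not compared. Total-count scaling moved every ratio by 0.19, so named ratios slightly below 0, such as those of QARS, ORC2 and ORC4, change sign under it too. Of 1930 gene values under other settings, 774 lay outside the gene's counting interval. The counts of higher and lower genes, 1690 and 1337, moved with the filter and the fold: 541 were higher and 1017 lower with at least 10 CPM in either library, 790 and 1107 where the mean count reached 50, and 1009 and 1205 among protein-coding genes. Higher calls were then 34.7%, 41.6% and 45.6% of all calls. At a 1.5-fold threshold 2683 were higher and 2794 lower, and at 3-fold 811 and 418. Among genes that share no exonic base with another, an alternative chosen after seeing the data, 913 were higher and 733 lower. On the second background the 1.5-fold threshold gave 1020 repeated higher and 1056 repeated lower calls. Without the filter on low counts 2239 were higher and 1485 lower. Total-count scaling gave 2212 higher and 907 lower, and upper-quartile scaling 2204 and 915, 70.9% and 70.7% of calls being higher against 55.8%. Under both, the medians of 4 lists changed sign, to 0.12 for the MYC network, 0.08 for immediate early genes, 0.03 for iron handling and 0.08 for haem synthesis with total counts. The share of lower genes with CACGTG was 14.7%, and 15.6% at a mean of at least 10 CPM, chosen after seeing the data. Over genes of every type under 80% matched a promoter, so no share is given. The cause of these shifts was not tested. No paired analysis was possible because each group holds 1 library and the groups share only replicate number 1. Leaving out a library was not possible for the same reason, and at low counts the depth leaves wide intervals.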
